A study of Mus musculus with 52 samples.

Results

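The promoters of the genes that encode mouse ZF-CxxC domain proteins, the family to which KDM2A and KDM2B themselves belong, were followed through the ATAC-seq libraries of a study that removed KDM2 domains from mouse embryonic stem cells (mESCs). The members were all promoters whose transcript mapped to Kdm2a, Kdm2b, Fbxl19, Cxxc1, Kmt2a, Kmt2b, Dnmt1, Mbd1, Tet1 or Tet3. The rule used the gene symbol and no measured value, and gave 12 promoters of 10 genes among 20633 promoters in all, because Kdm2b and Dnmt1 have a pair each. Each promoter was a fixed interval of 400 bp. Its value, called calibrated reads here, was the number of mouse reads in the interval divided by a size factor from the Drosophila SG4 cells spiked into the same reaction.

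There were 26 ATAC-seq libraries from 4 mESC lines. In the Kdm2a/b-JmjC fl/fl line loxP sites flanked the exons of the JmjC (demethylase) domain in both genes, so that deletion takes away the long KDM2 proteins and leaves short forms that keep the ZF-CxxC domain. In the Kdm2a/b-CXXC fl/fl line the exon for the ZF-CxxC domain was floxed in both genes, and it was floxed in the named gene alone in the remaining lines, Kdm2a-CXXC fl/fl and, separately, Kdm2b-CXXC fl/fl. All lines carried tamoxifen-inducible CreERT2, and each was compared as untreated cells against cells given 4-hydroxytamoxifen at 800 nM for 96 h, with 4 libraries per group in Kdm2a/b-CXXC and 3 per group in the other lines. The libraries are labelled as biological replicates, and each genotype is represented by 1 line, so the spread covers repeat samples of that line. No line without floxed alleles was treated, so an effect of tamoxifen or of Cre and an effect of the deletion cannot be told apart. The deleted exons lie inside the genes, so reads at the Kdm2a and Kdm2b promoters are no check of the deletion.

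The ZF-CxxC domain is a zinc finger that binds DNA containing unmethylated CpG and thereby brings its protein to CpG islands, the CpG-rich and mostly unmethylated stretches at many gene promoters. KDM2A and KDM2B are H3K36 demethylases, and KDM2B also brings a variant Polycomb repressive complex 1 to CpG islands. FBXL19 is their relative without a demethylase domain and recruits the kinase module of Mediator. CFP1, encoded by Cxxc1, is the reader of the SET1 H3K4 methyltransferase complexes, and Kmt2a and Kmt2b encode the H3K4 methyltransferases MLL1 and MLL2. DNMT1 copies DNA methylation onto the new strand after replication, MBD1 is a methyl-CpG binding repressor that also carries CxxC fingers, and TET1 and TET3 oxidise 5-methylcytosine.

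Both genes with a pair of promoters contrast a CpG-denser with a CpG-poorer start. The bases before these 4 starts are shown because the accessibility of the members is described against their CpG content. Each is the 250 bases upstream of the transcription start on the minus strand, 5′ to 3′, from RefSeq on GRCm38.p6, which has the coordinates of the mm10 build used for the reads, and capitals mark every CG. They lie at chr5:122989100-122989349 for Kdm2b upstream, chr5:122900351-122900600 for Kdm2b downstream, chr9:20959889-20960138 for Dnmt1 upstream and chr9:20952624-20952873 for Dnmt1 downstream. The upstream start is the one farther 5′ in the gene.
Kdm2b upstream: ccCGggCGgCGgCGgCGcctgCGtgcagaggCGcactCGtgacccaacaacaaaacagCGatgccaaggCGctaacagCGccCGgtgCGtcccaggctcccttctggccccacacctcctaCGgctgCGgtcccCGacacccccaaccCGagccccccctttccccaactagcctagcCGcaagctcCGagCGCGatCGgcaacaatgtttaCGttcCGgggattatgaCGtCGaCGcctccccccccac
Kdm2b downstream: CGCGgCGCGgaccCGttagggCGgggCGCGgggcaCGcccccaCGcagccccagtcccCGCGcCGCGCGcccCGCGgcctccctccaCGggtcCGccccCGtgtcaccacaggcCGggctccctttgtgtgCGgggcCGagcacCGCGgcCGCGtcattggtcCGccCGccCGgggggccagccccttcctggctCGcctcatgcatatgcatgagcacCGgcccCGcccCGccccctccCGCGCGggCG
Dnmt1 upstream: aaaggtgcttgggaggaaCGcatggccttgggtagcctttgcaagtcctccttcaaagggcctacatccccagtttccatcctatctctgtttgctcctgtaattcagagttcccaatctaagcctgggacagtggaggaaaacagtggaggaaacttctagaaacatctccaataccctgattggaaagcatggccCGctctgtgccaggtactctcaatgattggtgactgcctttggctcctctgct
Dnmt1 downstream: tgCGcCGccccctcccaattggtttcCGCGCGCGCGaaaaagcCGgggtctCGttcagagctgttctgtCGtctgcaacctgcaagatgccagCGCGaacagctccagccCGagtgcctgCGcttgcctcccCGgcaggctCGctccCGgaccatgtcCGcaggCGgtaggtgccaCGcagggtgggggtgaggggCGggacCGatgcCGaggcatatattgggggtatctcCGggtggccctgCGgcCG
The Kdm2b downstream stretch had 38 CG, and 98.1% of the 32851 RefSeq promoter stretches of this length had fewer. Kdm2b upstream had 27 CG and Dnmt1 downstream 26, with fewer in 91.4% and 90.4% of the stretches. Dnmt1 upstream had 2 CG, and 18.8% had fewer. These stretches of 250 bases are not the 400 bp intervals, over which accessibility and CpG content are compared below. In its 400 bp interval Kdm2b upstream had 22 CG. The RefSeq promoter table matched 6 of the 10 genes. Kdm2a, Kmt2b, Cxxc1 and Mbd1 were not matched.

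Summed over all promoters, a library had from 1488370 to 3025358 reads, and the median promoter had between 58 and 108 reads, so that counting error limits the members with few reads most. In Kdm2b-CXXC both libraries numbered 1 stood high, with totals of 2.96 M calibrated reads untreated and 3.19 M after tamoxifen against 1.75 to 2.12 M in the other 4. Of 10 promoters of embryonic stem cell markers 5 lay above the median of all promoters, led by Zfp42, Sox2, Klf4 and Utf1, while 0 of 5 fibroblast marker promoters and 3 of 8 promoters of differentiation markers did. Promoter accessibility is a weak test of cell type, since Pou5f1, which mESCs express strongly, lay at the 48.1 percentile.

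The members covered a wide range of promoter accessibility. Within each library, 20633 promoters were ranked from 0 to 100 by their reads, and each member is given by the median of its percentile over 26 libraries, with the lowest and highest library. The highest was Cxxc1 at 88.1 (77.4 to 94.8), followed by Kmt2b at 81.9 (64.4 to 96.1), Kdm2b downstream at 79.2 (64.8 to 88.7), Kmt2a at 75.1 (64.5 to 83.9) and Kdm2a at 72.9 (60.9 to 80.5). Dnmt1 downstream at 64.2 (52.1 to 82.3), Mbd1 at 61.5 (48.2 to 74.6) and Tet3 at 57.0 (43.3 to 65.7) followed, and Fbxl19 at 37.8 (29.6 to 45.5) and Kdm2b upstream at 35.8 (30 to 40.7) lay below the median promoter. Tet1 at 18.7 (1.13 to 31.5) and Dnmt1 upstream at 14.7 (1.96 to 27.5) were lowest, with 2 to 26 and 3 to 19 reads per library. In 24 of 26 libraries 8 of the 12 members were above the library's own median, and in the other two libraries 6 and 7 were. All intervals have the same length, so levels are set side by side per length, but a preference of the transposase for some sequences was not corrected for, since the genomic DNA libraries were not analysed here. Bulk values also cannot tell fewer cells with an open promoter from a promoter that is less open in every cell.

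**Figure D1:**
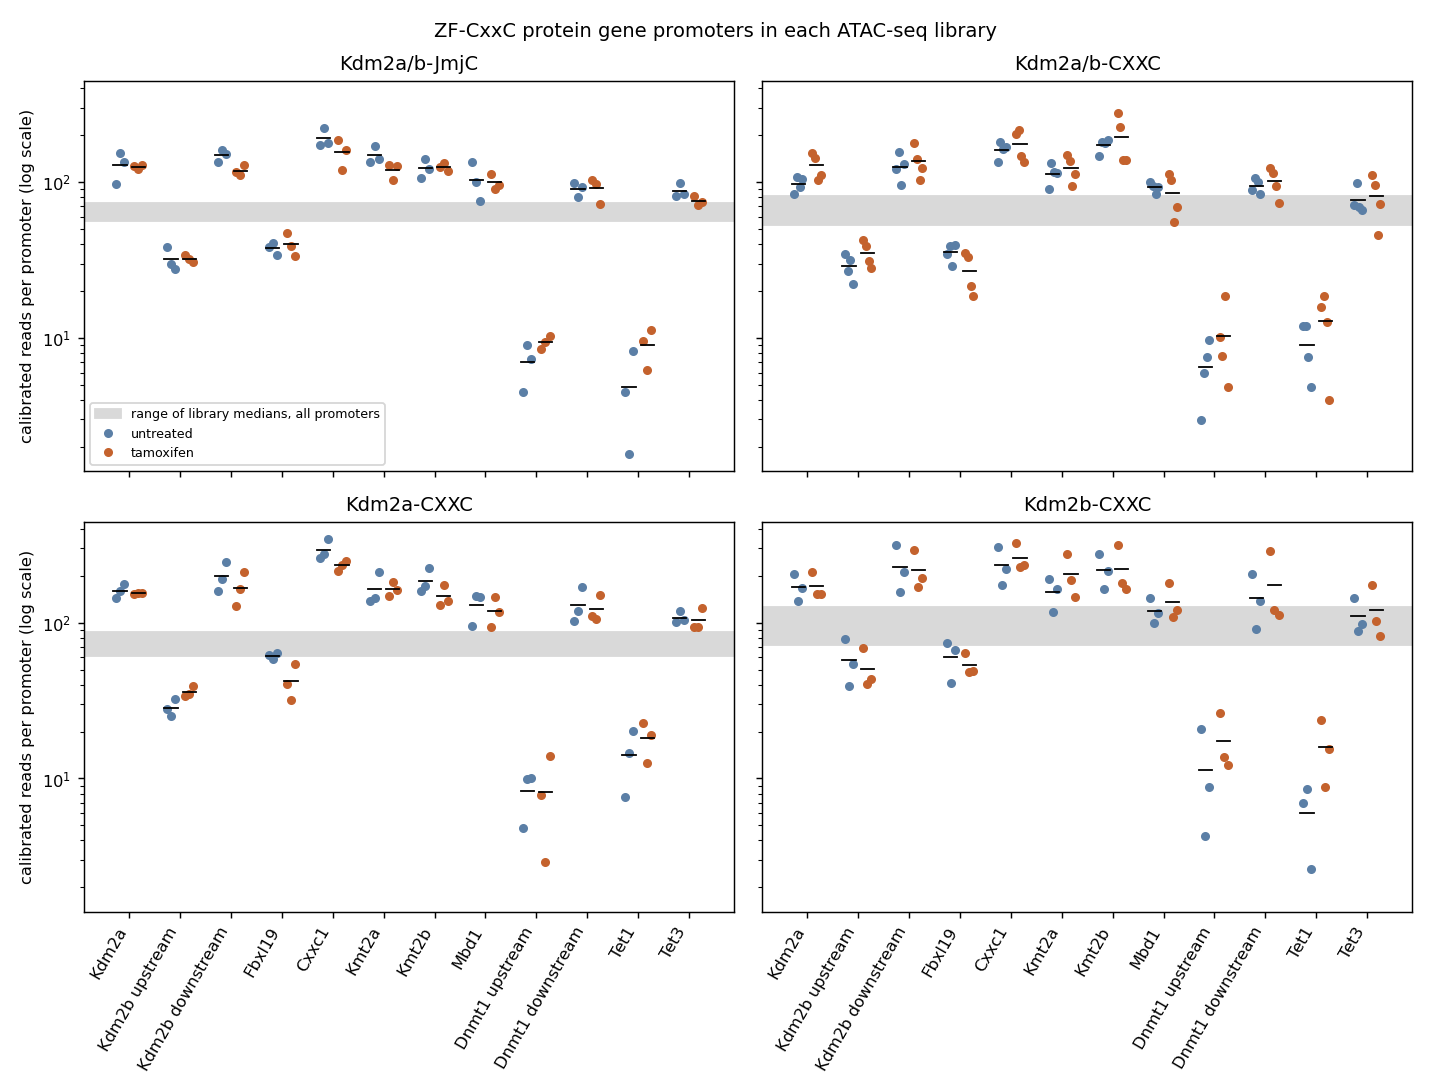
Calibrated reads (log axis) of each of the 12 member promoters in each of 26 libraries, by line, with untreated and tamoxifen libraries as separate points and the group mean as a bar. The grey band spans the library medians of all promoters. Tet1 and Dnmt1 upstream lie at the bottom in every line, Fbxl19 and Kdm2b upstream mostly below the band, and untreated and tamoxifen points mostly intermingle.

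The order was compared among untreated libraries, separately in each line because the tables were calibrated separately. Cxxc1, the CFP1 gene at chr18:74216012-74216411, had the highest mean in 3 lines, and Kmt2b, the MLL2 gene at chr7:30588527-30588926, had it in Kdm2a/b-CXXC. Most neighbours in the order were not separated, since the ranges of 8, 9, 7 and 9 of the 11 neighbouring pairs overlapped in the JmjC line, the double CXXC line, Kdm2a-CXXC and Kdm2b-CXXC. A pair of gaps appeared in all 4 lines. The lowest Tet3 library lay above the highest Fbxl19 library, and Kdm2b upstream did not overlap with Tet1 or Dnmt1 upstream. The members therefore formed 8 accessible promoters, a middle pair (Fbxl19 and Kdm2b upstream) and a nearly closed pair.

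Among the KDM2 group, Kdm2a (chr19:4396878-4397277) had 97.1, 154 and 134 calibrated reads in untreated Kdm2a/b-JmjC cells, then 84.0, 108, 92.8 and 105 (Kdm2a/b-CXXC), 143, 159 and 176 (Kdm2a-CXXC) and 205, 137 and 166 (Kdm2b-CXXC). Fbxl19 (chr7:127746575-127746974) had 38.4, 40.8 and 33.9, then 34.6, 38.9, 29.1 and 39.7, then 62.1, 58.6 and 63.8, and 73.8, 41.1 and 66.7 in the same order of lines. Every untreated Fbxl19 value was below every untreated Kdm2a value of its line. Cxxc1, Kmt2a and Kmt2b, the genes of H3K4 methylation, lay above Fbxl19 in every line. Cxxc1 had 173, 224 and 178, then 135, 180.4, 162 and 167, then 261, 277 and 342, and 307, 173 and 220.4 calibrated reads. Kmt2a, the MLL1 gene at chr9:44881075-44881474, had 134, 169.5 and 141, then 89.9, 134, 115 and 114, then 139, 144 and 209.7, and 191, 116 and 163. Kmt2b had 106, 141 and 121, then 147, 181, 177 and 187, then 160.5, 173 and 223, and 277, 164 and 214. Kmt2a lay below Cxxc1 in mean in every line, with overlapping ranges in Kdm2b-CXXC alone.

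The reader and erasers of DNA methylation, Mbd1, Tet3 and Tet1, had lower means than the genes of H3K4 methylation in every line. Mbd1 (chr18:74268088-74268487) averaged 103 ± 29.7 calibrated reads (SD, n = 3) in untreated Kdm2a/b-JmjC cells and 92.7 ± 6.84 (SD, n = 4), 130.2 ± 30.9 and 119 ± 22.1 (SD, n = 3 each) in the other lines. Tet3 (chr6:83441479-83441878) averaged 88.1 ± 9.36 (n = 3), 76.2 ± 15.1 (n = 4), 108 ± 9.57 and 110.3 ± 29.7 (n = 3 each). Tet1 (chr10:62879815-62880214) was near the floor, at 4.86 ± 3.23 (n = 3), 9.04 ± 3.49 (n = 4), 14.1 ± 6.32 and 6.02 ± 3.03 (n = 3 each). TET1 is the main TET protein of mESCs, but the Tet1 interval lay 7.31 kb from the current RefSeq start of its own transcript and held 0 annotated starts, although an exon of 3 of 6 transcripts overlapped it. Its low values therefore describe that interval and not the annotated Tet1 start. The Tet3 interval held a start, with other Tet3 transcripts beginning up to 15.5 kb upstream. Kdm2a and Fbxl19 also had transcripts starting 1.64 and 2.89 kb upstream of their intervals.

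CpG content was read from the mm10 sequence of each interval. The median promoter of 20630 with sequence had 24 CG and 60.25% GC, and 8 of the 12 members had more CG than that. Kdm2b downstream had 58 CG, Kmt2a and Kmt2b 54 each, Cxxc1 49, Kdm2a 42, Mbd1 and Tet3 35 each and Dnmt1 downstream 30. Those 8 were the same promoters that ranked above the median in accessibility. Fbxl19 had 23 CG, Kdm2b upstream 22, Tet1 10 and Dnmt1 upstream 3, and these were the 4 least accessible members. Fbxl19 and Kdm2b upstream were just under the median of 24 CG, at percentiles 47.7 and 46.2 of all promoters. With CpG-rich taken as 50% GC or more and a CpG ratio (observed over expected) of 0.6 or more, 9 of 12 members qualified against 54.6% of all promoters. Kdm2b upstream qualified, at 53.5% GC and a ratio of 0.806, although it was among the 4 least accessible members. Cxxc1 had a ratio of 1.21, above 99.8% of promoters, whereas Fbxl19, at 72.5% GC, had a ratio of 0.446.

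**Figure D2:**
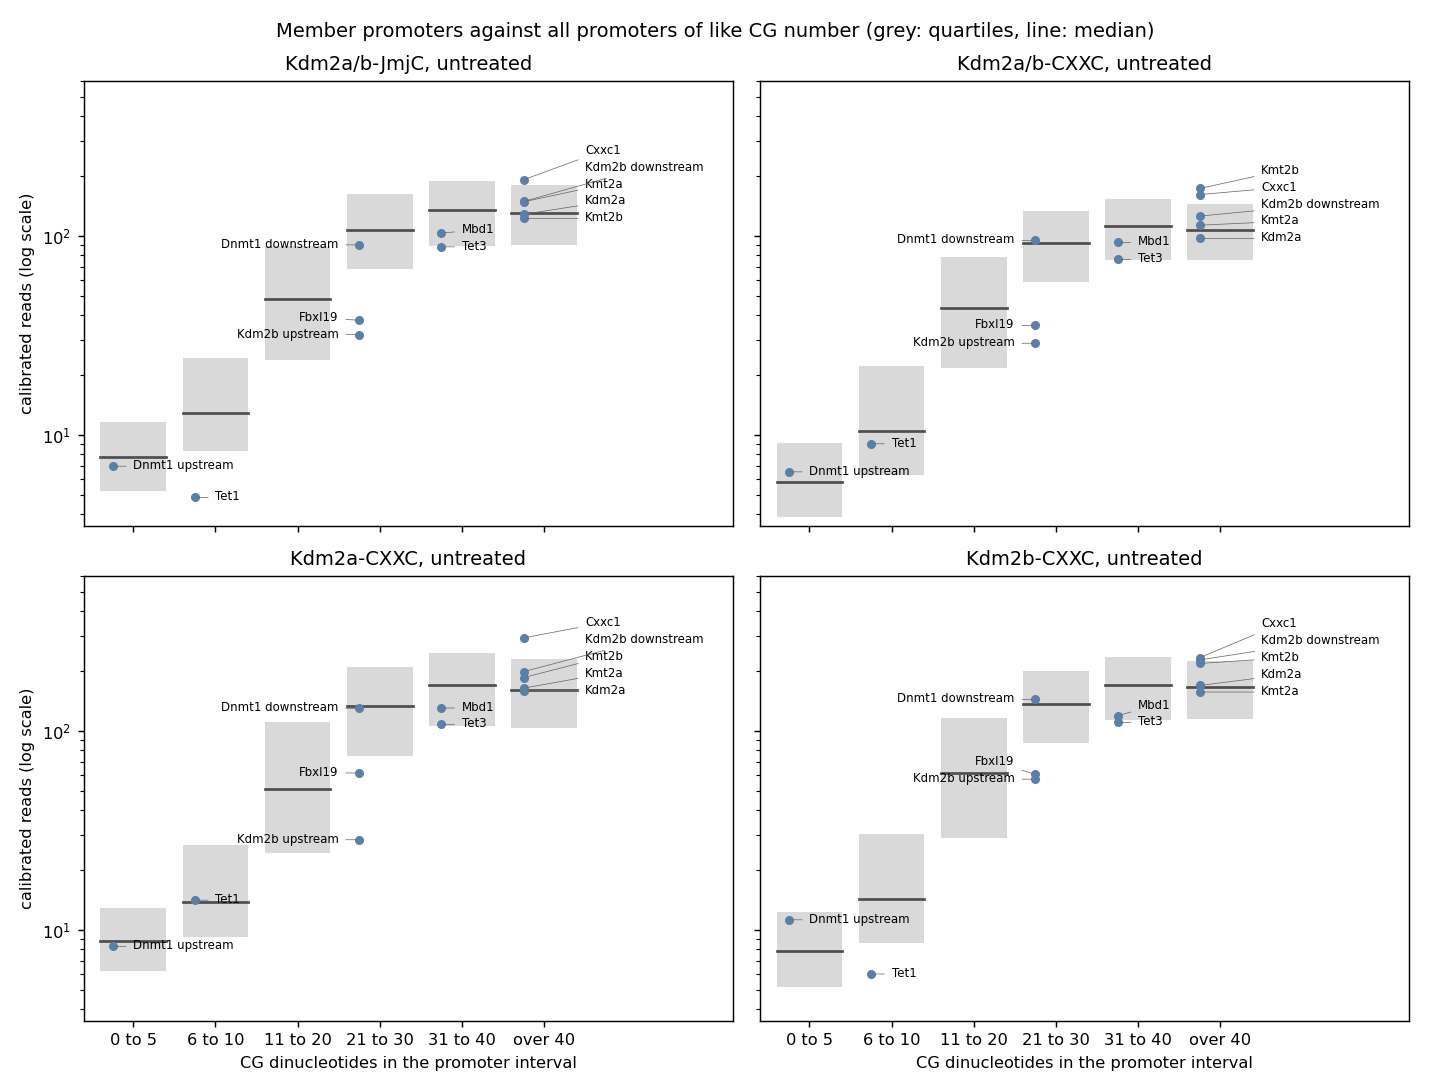
Calibrated reads (log axis) against CG number class of the 400 bp interval in untreated cells of each line, with the median (line) and quartiles (grey) of all promoters in each class and the group means of the members as labelled points. The median of all promoters rises with CG number and levels off in the densest classes. Cxxc1 sits above the grey box of its class, and Kdm2b upstream and Fbxl19 sit below the box of theirs.

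Set against promoters with a like number of CG, members fell on both sides. In untreated cells the median promoter with 0 to 5 CG had between 5.81 and 8.85 calibrated reads over the 4 lines, and the median promoter with over 40 CG had between 108 and 166. Cxxc1 stood at percentile 78.2 to 88.6 of the 4276 promoters with over 40 CG. Fbxl19 stood at 7.20 to 18.4, and Kdm2b upstream at 3.58 to 12.1, of the 3405 promoters with 21 to 30 CG, so both stood in the lowest part of that class in all 4 lines. Dnmt1 upstream was near the middle of its class of CG-poor promoters, at 42.6 to 71.1. Tet3 at 23.8 to 25.6 and Mbd1 at 27.4 to 35.8 were in the lower part of their class, and Kmt2b ran from 45.6 to 88.3 depending on the line.

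Short motifs were counted in the 400 bp intervals on both strands. GGGCGG, the GC box bound by Sp1, occurred in 8 of 12 members against 56.3% of all promoters, with 6 copies in Kdm2b downstream and 4 each in Kmt2a and Kmt2b. CCAAT, the NF-Y box, occurred in 7 of 12 against 40%, with 5 copies in Dnmt1 upstream. CACGTG occurred in Kdm2a alone among the members and in 9.54% of all promoters. TATAAA occurred in 0 members and 10.4% of promoters, and CCGGAAG in 0 members and 14.1%.

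The Kdm2b promoters lie 88.7 kb apart on chromosome 5, the upstream interval at chr5:122988900-122989299 and the downstream interval at chr5:122900151-122900550. The upstream start serves long KDM2B, and transcripts from the downstream start lack the JmjC part and keep the ZF-CxxC part. The CpG-denser downstream promoter was the more accessible in 26 of 26 libraries, by 2.94 to 7.38 times (after adding 1 to both values). In untreated Kdm2a/b-JmjC cells the downstream promoter had 134, 161 and 151 calibrated reads and the upstream promoter 38.4, 29.9 and 27.5. In untreated Kdm2b-CXXC cells it had 315, 157 and 211 against 78.4, 38.9 and 54.4. The upstream interval overlaps that of A930024E05Rik by 146 bp, so some of its reads count for both. Dnmt1 showed the same order on chromosome 9, where the intervals at chr9:20952424-20952823 and chr9:20959689-20960088 lie 7.265 kb apart. The downstream Dnmt1 promoter was the more accessible in 26 of 26 libraries, by 4.85 to 27.3 times, a range that rests on 3 to 19 upstream reads per library. In untreated Kdm2a/b-JmjC cells it had 98.2, 79.8 and 92.6 calibrated reads against 4.52, 9.07 and 7.33.

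The ratio of downstream to upstream promoter takes both values from the same library, so the size factor nearly cancels. On the log2 scale, with 1 added to each calibrated value, the Kdm2b ratio was 2.49, 2.88 and 2.87 in untreated Kdm2a-CXXC cells and 1.87, 2.20 and 2.39 after tamoxifen, and the groups did not overlap. The difference was −0.59, from 2.75 ± 0.22 to 2.15 ± 0.26 (SD, n = 3), with a counting standard error of 0.22. An exact two-sided permutation test gave p = 0.1 (0.2 adjusted over the 4 lines), the smallest p that 3 against 3 allows. In Kdm2b-CXXC cells the ratio was 1.99, 1.99 and 1.93 untreated and 2.08, 2.04 and 2.14 after tamoxifen. These groups also did not overlap, at the same exact permutation p = 0.1 (0.2 adjusted), but the difference of 0.12 was below its counting standard error of 0.18. Kdm2a/b-JmjC went from 2.20 ± 0.36 to 1.84 ± 0.16 (SD, n = 3; exact permutation p = 0.2, adjusted 0.267) and Kdm2a/b-CXXC from 2.08 ± 0.49 to 1.91 ± 0.19 (SD, n = 4; exact permutation p = 0.514, adjusted 0.514), with overlapping groups.

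The effects in Kdm2a-CXXC (−0.59) and Kdm2b-CXXC (0.12) thus had opposite signs and lay −0.71 apart, with a counting standard error of 0.29. This gap is given as a description, since it was picked out after the values were seen and was not tested between lines. Leaving out each library in turn, it ran from −0.84 to −0.57. The untreated mean ratio was 2.75 in Kdm2a-CXXC and 2.20, 2.08 and 1.97 in Kdm2a/b-JmjC, Kdm2a/b-CXXC and Kdm2b-CXXC. After tamoxifen the Kdm2a-CXXC mean of 2.15 lay within the range of those other untreated means. These levels were not tested between lines.

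**Figure D3:**
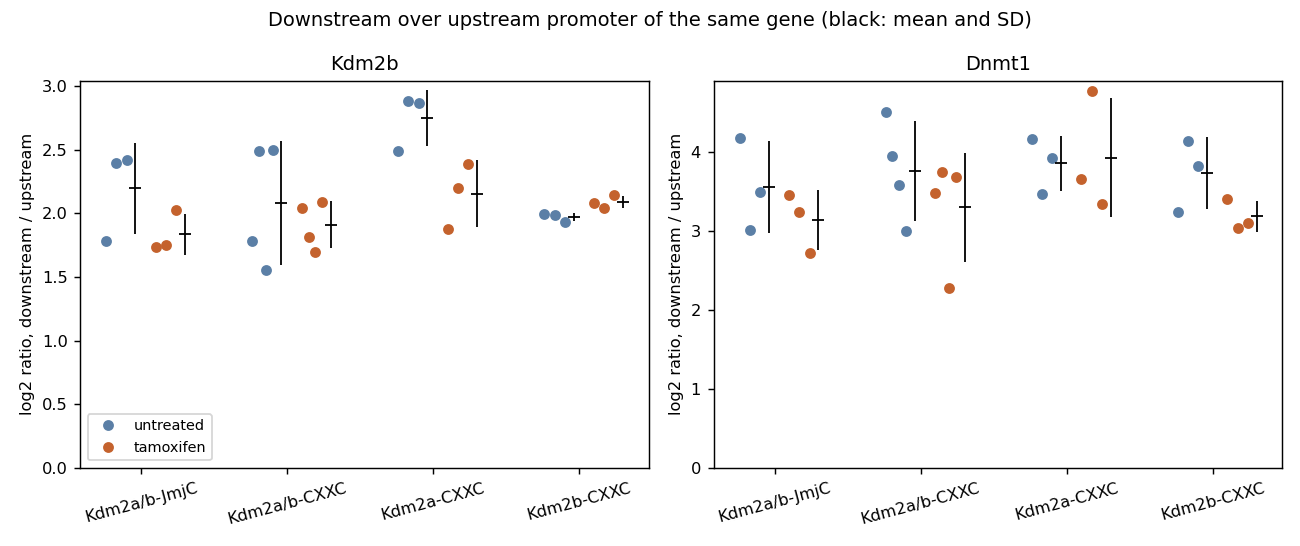
Log2 ratio of downstream to upstream promoter reads for Kdm2b and Dnmt1 in each of 26 libraries, by line and treatment, with the group mean and SD in black. All points lie above 0, and the Kdm2b groups separate in Kdm2a-CXXC, where the tamoxifen libraries are lower, and by a smaller distance in Kdm2b-CXXC, where they are higher.

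The comparison of tamoxifen-treated with untreated cells asks whether promoter accessibility depends on KDM2 domains. It was fitted over all promoters with limma on log2(calibrated reads + 1), and a promoter was called when its fold exceeded 1.4 and its p, adjusted by Benjamini-Hochberg over all promoters tested, fell below 0.05. No member was called in any line. The count was 0 of 10 members tested in Kdm2a/b-JmjC, where 0.0757% of all 17174 promoters were called, and 0 of 11, 0 of 11 and 0 of 12 in the double and both single CXXC lines (Kdm2a-CXXC, then Kdm2b-CXXC), where 0% of all promoters were called. Dnmt1 upstream passed the filter on low reads in Kdm2b-CXXC only, and Tet1 passed in every line but Kdm2a/b-JmjC. At an unadjusted p under 0.05 the members numbered 2, 0, 1 and 1 in the 4 lines, and all promoters 3537, 764, 1488 and 120. Split by direction, 20.3% of all promoters passed that level as lower and 0.262% as higher in Kdm2a/b-JmjC, and both of its members, Cxxc1 and Kdm2b downstream, were lower. The lower share was 1.07% and the higher 3.58% in Kdm2a/b-CXXC. These shares were 8% and 0.395% in Kdm2a-CXXC, where Fbxl19 was lower, and 0.151% and 0.519% in Kdm2b-CXXC, where Tet1 was higher but had passed the filter mainly through its treated libraries. edgeR and DESeq2 on the recovered reads also called 0 members in each line.

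In Kdm2a/b-JmjC, calibrated reads were lower after tamoxifen at most promoters, with a median log2 fold change of −0.21 over all promoters and 16.6% of them above 0. The members had a median of −0.01, with 4 of 10 above 0. Kdm2b downstream had 134, 161 and 151 calibrated reads untreated and 116, 110.4 and 128 after tamoxifen, groups that did not overlap. Its log2 fold change was −0.33 ± 0.16 (SE), and the limma adjusted p was 0.225. Kmt2a had 134, 169.5 and 141 against 129, 103 and 127, without overlap (log2 fold change −0.31 ± 0.16, limma adjusted p = 0.253). Tet3 had 81.3, 98.8 and 84.3 against 81.1, 71.3 and 74.7, where the nearest libraries of the groups almost met, at −0.21 ± 0.20 (limma adjusted p = 0.530). Cxxc1 had 173, 224 and 178 against 187, 119.8 and 162, with overlapping groups, at −0.31 ± 0.15 (limma adjusted p = 0.220). The groups of 3 of 10 members thus did not overlap in the lower direction, where 23.2% of all promoters did so. In the higher direction 0 did (0.908% of all), so by this count the members lay close to the background. Their median and share above 0, given above, were higher than those of all promoters, which was not tested. The other members ranged from −0.02 for Mbd1 to 0.07 for Fbxl19.

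In Kdm2a/b-CXXC the members had a median of 0.11 beside 0.09 for all promoters, 9 of 11 being above 0 as were 68% of all. Kdm2a had 84.0, 108, 92.8 and 105 calibrated reads untreated and 154, 143, 103 and 111 after tamoxifen. Tamoxifen replicates 1, 2 and 4 were above every untreated library and replicate 3 was within their range. The log2 fold change of 0.38 ± 0.19 was the highest of the members, with a limma adjusted p of 0.996 and a 95% confidence interval from −0.0021 to 0.76. Fbxl19 was the lowest, with 34.6, 38.9, 29.1 and 39.7 untreated and 34.9, 33.1, 21.5 and 18.5 after tamoxifen (−0.42 ± 0.28, limma adjusted p = 0.996), and its groups overlapped too. The groups of 0 of 11 members were without overlap, against 1.8% of all promoters higher and 0.597% lower.

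In Kdm2a-CXXC the median was −0.08 for the members and −0.18 for all promoters, with 3 of 11 members and 18.8% of all promoters above 0. Fbxl19 had 62.1, 58.6 and 63.8 calibrated reads untreated and 40.1, 31.9 and 54.6 after tamoxifen. The groups did not overlap, the treated libraries being lower, at a log2 fold change of −0.57 ± 0.26 and a limma adjusted p of 0.581 (unadjusted 0.0269). Cxxc1 was also lower without overlap, with 261, 277 and 342 against 214, 235 and 250.01 (−0.33 ± 0.18, limma adjusted p = 0.596). Kdm2b upstream was higher without overlap, with 27.7, 25.1 and 32.4 against 34.0, 34.8 and 39.3 (0.34 ± 0.30, limma adjusted p = 0.680). Of all promoters 13.4% were lower and 1.12% higher without overlap, so the 2 of 11 members lower are near the background. The 1 of 11 higher rests on a promoter with few reads.

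In Kdm2b-CXXC the median was 0.13 for the members and 0.10 for all promoters, with 8 of 12 members and 71.1% of all promoters above 0. Tet1 and Dnmt1 upstream, which have few reads, are in that median and among the 8 above 0. The members' median is therefore not read as higher than that of all promoters. Dnmt1 upstream had 18, 6 and 10 reads untreated and 19, 14 and 15 after tamoxifen, and its fold is not read either. Tet1 had 6.92, 8.5 and 2.63 calibrated reads untreated and 23.7, 8.87 and 15.5 after tamoxifen, which are 6, 12 and 3 reads against 17, 9 and 19. The groups did not overlap on the calibrated scale but did in reads. The log2 fold change was 1.29 ± 0.64 with a limma adjusted p of 1.00, and the interval passed the filter mainly through its treated libraries, where it was high, so nothing is read from its fold or its lack of overlap. The groups of the other 11 members overlapped, while 2.13% of all promoters were higher and 0.446% lower without overlap. Kmt2a stood at 0.36 ± 0.37, from 191, 116 and 163 to 277, 187 and 147 with overlap, and the log2 fold changes of the members other than Tet1 and Dnmt1 upstream (0.76 ± 0.57) ran from −0.16 to 0.36. Without both high libraries numbered 1, a setting chosen after seeing the data, 0 members were called and their median was 0.04.

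**Figure D4:**
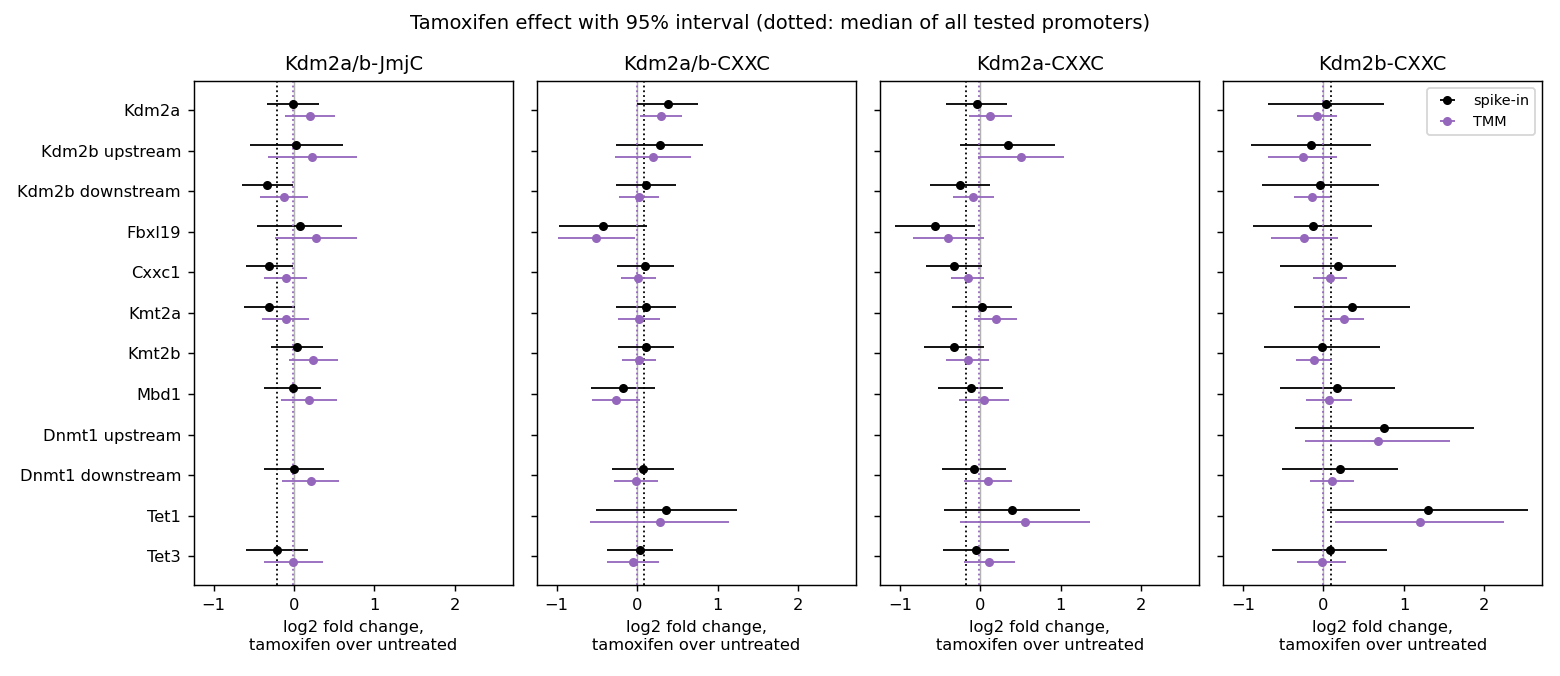
Log2 fold change of tamoxifen over untreated for each member tested in each line, with 95% confidence intervals from limma under the spike-in calibration (black) and TMM scaling (purple), and the median of all promoters as dotted lines. Spike-in intervals are widest for Tet1 and Dnmt1 upstream and in Kdm2b-CXXC, and the points scatter around the median of all promoters in each line.

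A lack of calls does not show that accessibility was the same. The 95% confidence interval lay wholly within 1.4-fold either way for 4 of 10 members of the JmjC line, 5 of 11 of the double CXXC line, 4 of 11 with Kdm2a-CXXC and 0 of 12 with Kdm2b-CXXC. For the remaining members the interval reached past 1.4-fold, so a difference of that size was not excluded. With TMM scaling the counts were 4 of 10, 6 of 11, 8 of 11 and 7 of 12 in the same order. A joint fit of all lines covered the promoters that passed the filter in every line, so Tet1 and Dnmt1 upstream were left out. In it limma called 0 members for a difference in tamoxifen effect between lines. Of 16030 promoters 0 were called and 580 (3.62%) had an unadjusted p under 0.05, 0 of them members. The mean effect over 4 lines was also called for 0 members and 0 promoters, with 674 promoters at an unadjusted p under 0.05 (3.58% lower and 0.624% higher), 0 of them members. It lay between −0.13 and 0.12 for the members except Fbxl19, at −0.26 ± 0.15 (limma adjusted p = 1.00), and the median was −0.04 for the members and −0.06 for all promoters.

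Scaling the libraries to each other (TMM) in place of the spike-in removes any shift shared by all promoters. It moved the median of all promoters from −0.21 to −0.01 in Kdm2a/b-JmjC and from −0.18 to −0.01 for Kdm2a-CXXC. For Kdm2a/b-CXXC and Kdm2b-CXXC it went to near 0, from 0.09 and 0.10. Relative to the other promoters the members then had medians of 0.19, 0.02, 0.09 and 0.02 (JmjC line, double CXXC line, Kdm2a-CXXC, Kdm2b-CXXC), so the sign of their median turned in Kdm2a/b-JmjC and Kdm2a-CXXC. In Kdm2a-CXXC Fbxl19 stayed lower without overlap under TMM (6.24% of all promoters) and Kdm2b upstream higher (5.06%), and the groups of Cxxc1 then overlapped. The groups of 0 members were without overlap under TMM in Kdm2a/b-JmjC (5.71% of all promoters lower, 5.05% higher) and in Kdm2a/b-CXXC (2.5% and 2.4%). In Kdm2b-CXXC the groups of Tet1 overlapped and those of Kdm2b upstream separated in the lower direction, with 6.53% of all promoters lower and 5.9% higher without overlap. TMM called 0 members in each line, and 0%, 0.104%, 0% and 0.00558% of all promoters. At an unadjusted limma p under 0.05 with TMM, Kdm2a was higher (0.29) and Fbxl19 lower (−0.51) in Kdm2a/b-CXXC. Of all promoters there, 4.67% were higher and 4.97% lower at that level. In Kdm2b-CXXC Kmt2a was higher (0.25), as was Tet1, whose fold is not read, while 3.43% of all promoters were higher. No member passed that level in Kdm2a/b-JmjC or Kdm2a-CXXC.

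The partners of the ZF-CxxC proteins, subunits of the complexes they work in and further readers and writers of DNA methylation, were taken from a list of 35 genes, of which 32 were found with 37 promoters. None of their promoters was called by limma in any line, of 37, 36, 37 and 37 tested. Their median log2 fold changes were −0.22, 0.10, −0.22 and 0.06 in the 4 lines (JmjC, double CXXC, Kdm2a-CXXC, Kdm2b-CXXC), beside −0.21, 0.09, −0.18 and 0.10 for all promoters. In Kdm2a/b-JmjC 6 of 37 were lower at an unadjusted p under 0.05, where 20.3% of all promoters were. These were Bcor and Ring1 of the 10 promoters for the KDM2B complex, Psip1 of the 11 for SET1 and MLL complexes, and Atf7ip, Mbd2 and Mbd4 of the 5 for MBD proteins and MBD1 partners. Atf7ip, the MBD1 cofactor, stood at −0.43 with a limma adjusted p of 0.0973, and Psip1, which tethers MLL complexes to chromatin, at −0.39. Without tamoxifen replicate 1 both were called by limma, at −0.52 (adjusted p = 0.0329) and −0.53 (adjusted p = 0.0406). In that fit 622 of 17174 promoters (3.62%) were called, so 2 of 37 partners is near the background. In Kdm2a-CXXC 3 of 37 were lower (8% of all promoters), Ash2l of the H3K4 methyltransferase core at −0.55, Ring1 at −0.48 and the DNA methyltransferase gene Dnmt3b. In Kdm2a/b-CXXC Men1, a subunit of MLL complexes, was the 1 of 36 higher (3.58% of all), at 0.37, and in Kdm2b-CXXC the count was 0 of 37.

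The remaining genes of the family are Cxxc4 and Cxxc5, which encode small CxxC proteins, and Tet2, which has lost its own CxxC domain. Over the 26 libraries their median percentiles were 38.4, 63.6 and 66.1. None was called by limma in any line. Tet2 had 105, 96.1 and 179.6 calibrated reads in untreated Kdm2a/b-JmjC cells and 99.3, 96.3 and 91.1 after tamoxifen, at −0.35 ± 0.18 (limma adjusted p = 0.242), with untreated replicate 3 alone above the treated range by a wide margin. Tet2 was high in Kdm2a-CXXC, at 204, 212 and 248 untreated and 168, 237 and 250.01 after tamoxifen. In CPM, which leaves the calibration out, it stood 0.71 on the log2 scale above the mean of the other lines, while the 781 promoters of chromosome 3 had a median shift of 0.30 and Cxxc4, also on chromosome 3, had −0.03.

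Across all 26 libraries, the promoters with read levels most like a KDM2 promoter were found by Pearson correlation of log2 TMM-scaled CPM over 16030 promoters, given as a description because libraries share line, depth and calibration. Pcnx3 on chromosome 19 (r = 0.741) and Fbxo6 (r = 0.727) were nearest to Kdm2a. A930024E05Rik (r = 0.785), which shares reads with it, and Izumo1r (r = 0.729) were nearest to Kdm2b upstream. Dock5 (r = 0.742) and Mtch1 (r = 0.739) were nearest to Kdm2b downstream. No KDM2 promoter was among the nearest of another. The Tet3 interval overlaps that of B230319C09Rik by 324 bp, so these cannot be told apart, and the nearest other promoter of Kdm2a, A930001C03Rik, lay 42.2 kb away.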

How the data were processed

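ATAC-seq libraries from 26 samples were analysed, and the 26 matched input genomic DNA samples were not analysed here. Per the study's methods, the authors aligned reads to joined mouse (mm10) and Drosophila genomes with Bowtie2, removed multi-mapping and duplicate reads, and counted reads in promoter intervals. The deposited signal values are these reads divided by a DESeq2 size factor from Drosophila reads corrected by the input, and tool versions are not given in the sources used here. The authors' own columns of fold changes, errors and p-values were not used. Because 100% of values in each library came out as whole multiples of the value of 1 read (within 0.01), reads were recovered, with size factors of 0.718 to 1.41.

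The 10 genes and the lists of partners and markers were chosen with earlier results of these data known. Symbols were matched for 99.6% of promoters, from RefSeq for 99.1% and from GENCODE for 110. All rows of the member genes, Cxxc4, Cxxc5, Tet2, the 2 partners with the smallest unadjusted p in each line and the 2 promoters most alike to each KDM2 promoter were to be named. Further partners were named after their values were seen. Promoters passing the edgeR (4.0.16) filter on recovered reads were tested with limma (3.58.1, trended eBayes, R 4.3.3) on log2(signal + 1), two-sided, with Benjamini-Hochberg adjustment over all promoters tested in each line. Fold changes on this scale understate those of promoters with few reads. A joint fit over 4 lines tested the line by tamoxifen interaction and the mean effect. Ratios were compared by exact permutation (scipy 1.17.1). Alternatives were TMM, median-of-ratios and total read scaling, a pseudocount of 5, no filter, edgeR and DESeq2 (1.42.0) on recovered reads, a replicate block and leaving out each library. Added after seeing the data were the block with TMM, leaving out both Kdm2b-CXXC libraries numbered 1, and the gap in the Kdm2b ratio effect between lines, given without a test. The scripts were tested on simulated data. Intervals cover the spread between libraries, and counting errors cover counting only.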

Additional observations from a re-analysis of the deposited data

Results flagged for a closer look

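In the 4 untreated Kdm2a/b-CXXC libraries, the Tet3 promoter had 98.6 calibrated reads in replicate 2 against 65.8, 69.3 and 71.1 in the others. Its gap to the nearest library was 0.839 of the group's range, over Dixon's 95% critical value for 4 samples. It was the only one over the limit among 26 such groups tested, and chance flags about 1 in 20. With tamoxifen the 4 libraries ran from 46.0 to 110.4, so the high library lay within the treated range.

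The tamoxifen effect on the log2 ratio of the downstream to the upstream Kdm2b promoter differed between Kdm2a-CXXC and Kdm2b-CXXC by −0.71 (counting standard error 0.29). It is listed because all tamoxifen libraries lay below the untreated ones in the former line and above them in the latter. The difference was not tested. Untreated Kdm2a-CXXC cells had the highest mean ratio of the untreated groups, at 2.75. The upstream values rest on 29 to 39 reads in Kdm2a-CXXC and 41 to 68 in Kdm2b-CXXC, and the effect in Kdm2b-CXXC was below its counting standard error.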

How the results depend on the processing

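No member promoter was called in any line, in the mean effect or in the interaction under any alternative run. The median log2 fold change of the members in Kdm2a/b-JmjC moved from −0.01 to 0.19 with TMM or median-of-ratios scaling and with the block and TMM together, and to 0.20 with total promoter reads. In Kdm2a-CXXC it moved from −0.08 to 0.10 with median-of-ratios scaling and 0.11 with total promoter reads. These scalings set the median of all promoters near 0 by construction. Leaving out each library in turn, the members' median ran from −0.147 to −0.0137 in Kdm2a/b-JmjC, −0.03 to 0.23 in Kdm2a/b-CXXC, −0.23 to −0.02 in Kdm2a-CXXC and −0.18 to 0.30 in Kdm2b-CXXC. The count of partners called ran from 0 to 2 in Kdm2a/b-JmjC, where the fit with 2 called 3.62% of all promoters against 0.0757%. The effect on the Kdm2b ratio ran from −0.57 to −0.25 in Kdm2a/b-JmjC, −0.35 to −0.03 in Kdm2a/b-CXXC, −0.72 to −0.45 in Kdm2a-CXXC and 0.09 to 0.14 in Kdm2b-CXXC. The difference of that effect ran from −0.84 to −0.57 for Kdm2a-CXXC minus Kdm2b-CXXC and from −0.69 to −0.37 for Kdm2a/b-JmjC minus Kdm2b-CXXC, neither of them tested. The cause was not tested. Of 478 values of single promoters under the other settings, 458 moved by less than the replicate SD, and 50 changed sign, none of them called.

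Across promoters, libraries with the same number had correlated deviations of at most 0.073, although in Kdm2a/b-JmjC every library correlated best with its own number. That correlation leaves out a shift shared by a whole library, so it cannot decide whether the replicate numbers pair the samples. In Kdm2b-CXXC the calibrated totals of replicates 1, 2 and 3 were 2.96, 1.75 and 2.12 M untreated and 3.19, 1.98 and 2.11 M after tamoxifen. The totals kept the same order by number in Kdm2a-CXXC too, but not in the other lines. The replicate block left the member calls at 0 in every line and the members' medians at −0.01, 0.11, −0.08 and 0.13, while over all promoters it called 62 instead of 13 in Kdm2a/b-JmjC, 188 instead of 0 in Kdm2a-CXXC, 5 instead of 0 in Kdm2b-CXXC and 35 instead of 0 in the interaction. In Kdm2b-CXXC the block narrowed the median half-width of the members' 95% intervals from 0.72 to 0.29. TMM called 0, 17, 0 and 1 promoters in the 4 lines. edgeR called 114 promoters in Kdm2a/b-JmjC. Members with few reads, Tet1 and Dnmt1 upstream, are limited by counting.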
